A study of Mus musculus with 15 samples.

Results

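SR proteins are splicing factors with RNA recognition motifs at one end and a tail rich in serine-arginine pairs at the other. They bind exonic enhancer sequences and help the spliceosome to recognize exons, and their tails are phosphorylated by the Srpk and Clk kinases. Most SR genes limit their own output by producing transcripts that carry an extra exon or a kept intron with an early stop codon, so that a measured gene level sums translatable and non-productive messages. The 10 SR genes listed in the series (Srsf1, Srsf2, Srsf3, Srsf4, Srsf5, Srsf6, Srsf7, Srsf9, Srsf10 and Srsf11) were chosen by family membership. All 10 were listed at the gene level, among 13501 genes in the overexpression table and 13669 in the hairpin table, and 51 of the 30220 transcripts in the transcript table belonged to them.

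RNA was sequenced from 6DT1, a mouse mammary cancer cell line, in 5 stable lines with 3 libraries each. All cells were grown as a monolayer on plastic. The OE line carried a vector with a Myc-tagged Smarcd1 coding sequence and was compared with EV, which carried the empty vector, both under blasticidin. KD4 and KD6 each carried 1 hairpin against Smarcd1, a subunit of the BAF chromatin remodeler, and were compared with shScr, which carried a scrambled hairpin, all under puromycin. Libraries of a line came from different passages plated on successive days and harvested 24 h after plating at 70% confluence, so p-values measure spread between passages of 1 line and not between independently made lines.

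Values are CPM, read counts that the authors scaled to a common total per library. Sequencing depth could not be read from them, so errors are given as spread between libraries only. Smarcd1 was 65.7 ± 4.40 CPM in OE against 29.6 ± 2.37 in EV (SD, n = 3), and 9.13 ± 0.121 in KD4 and 14.4 ± 1.03 in KD6 against 15.3 ± 1.01 in shScr. By limma, it was higher in OE (adjusted p = 0.00355) and lower in KD4 (adjusted p = 0.000873), while KD6 missed the threshold (adjusted p = 0.701). Any KD6 value below therefore comes from a line whose Smarcd1 mRNA was not shown to be lower in these libraries. The paper also shows a western blot of Smarcd1 protein in its hairpin lines, and protein was not measured here. Of the 5 epithelial markers, Krt8, Krt18 and Krt19 were listed, at 655 to 958 CPM summed, and Epcam and Cdh1 were not. Of markers of other cell types, Pdgfra, Cd68, Kdr and Acta2 were listed, led by Cd68 at 26.7 to 68.1 CPM. EV replicate 1 stood apart on the first principal component of the OE and EV table.

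Several SR genes were read as competing transcripts whose coding sequences part at 1 point. The sequences below are shown because each pair holds the transcript with the largest mean share of the summed CPM of its gene. They are GENCODE M1 coding sequences matched by transcript identifier, written 5′ to 3′ on the strand of the gene, and positions are counted from the first base of the M1 coding sequence. Srsf3-001 codes for the full protein, and Srsf3-002, which M1 classes as a target of nonsense-mediated decay (the pathway that degrades messages with early stop codons), shares its first 342 bases. The window covers bases 331 to 360, with the bases after the parting in capitals.
Srsf3-001: cctcggcgcagaTCCCCAAGAAGGAGAAGC
Srsf3-002: cctcggcgcagaGTCACCATCATGTCTCTT
After the parting, Srsf3-001 runs on for 153 bases and Srsf3-002 for 33. The last 30 bases of the Srsf3-002 coding sequence are shown with the stop codon in capitals.
Srsf3-002: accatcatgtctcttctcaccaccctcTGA

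Srsf1-001 and Srsf1-003 are both classed as protein coding and share their first 553 bases, after which the coding sequence of Srsf1-001 has 191 bases and that of Srsf1-003 has 50 before 3 shared last bases. Bases 542 to 571 are shown, with the bases after the parting in capitals.
Srsf1-001: gatctcacgaggGAGAAACTGCCTACATCC
Srsf1-003: gatctcacgaggTAGGTTATACACTTATTC
Srsf10-001 and Srsf10-002 part after 492 shared bases, and bases 481 to 510 are shown in the same way.
Srsf10-001: gacaatgatagaTTCAAACACCGAAATCGA
Srsf10-002: gacaatgatagaCCAAACTGCAGCTGGAAT

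In Srsf5 and Srsf10, further coding transcripts differed by 3 bases only. Srsf5-003 and Srsf10-001 hold the 3 bases in capitals, which Srsf5-202 and Srsf10-003 lack.
Srsf5-003: gcaaaaggcacagCAGgtcaagaagcaggt
Srsf5-202: gcaaaaggcacaggtcaagaagcaggt
Srsf10-001: acagtcctagaaaCAGtagaccgactggaa
Srsf10-003: acagtcctagaaatagaccgactggaa
Srsf11-001 has 105 more coding bases than the main transcript Srsf11-002, ahead of 1428 last bases that both share. Both coding sequences begin with atg, and the bases of Srsf11-001 that follow it are shown in capitals. Whether this is the same start codon was not determined.
Srsf11-001: atgTCGTCACCGCCAGCTCCCGGGACCGCA
Srsf11-002: atgagcagcacggcagtggtccccagc

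The gene levels were compared with each other only per length, as CPM per kb of the M1 transcripts, summed within a gene over all 15 libraries. The sums include transcripts that M1 classes as non-coding, so the order is not one of coding messages. Srsf5-008, a processed transcript of 538 bases, gave 29.8 CPM per kb of the Srsf5 sum. Among single coding transcripts, Srsf2-001 was at 103 CPM per kb, Srsf1-003 at 77.0, Srsf5-202 at 48.8 and Srsf3-001 at 13.6. Srsf5, which promotes exon inclusion, had the highest sum at 139 ± 16.0 CPM per kb (SD, n = 15 libraries). Srsf1, a regulator of splice site choice that can act as an oncoprotein in mammary epithelium, followed at 122 ± 9.37. Srsf2, which binds exonic enhancers, came next at 117 ± 6.64. The library ranges of neighbors in this order overlapped from Srsf5 to Srsf2. Srsf11, an atypical member of the family, lay below them at 84.5 ± 7.18, and its range did not overlap that of Srsf2.

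Srsf3, the smallest SR protein and an adaptor for mRNA export, reached 65.6 ± 4.0 CPM per kb and overlapped Srsf11. Srsf10, whose dephosphorylated form represses splicing in mitosis and after heat shock, was at 47.1 ± 3.28, with no overlap with Srsf3. Srsf9 was at 41.8 ± 3.26 and overlapped Srsf10. Srsf4, a member with a long serine-arginine tail, was lowest at 24.0 ± 1.24, below every Srsf9 library. Srsf6 and Srsf7, the latter with a zinc knuckle beside its RNA recognition motif, were left out of this order because M1 gave a length for transcripts holding only 80.9% and 27.8% of their CPM.

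**Figure D1:**
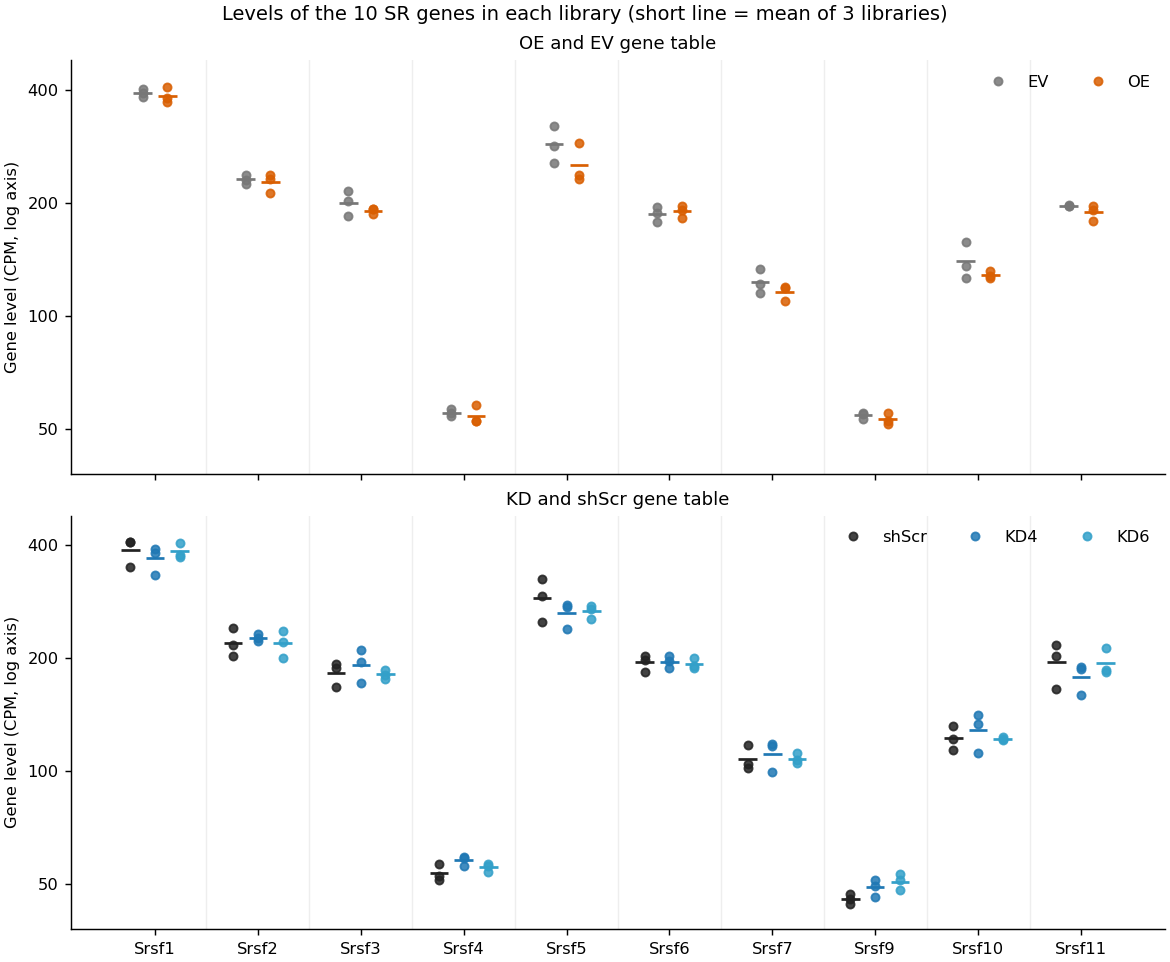
Gene level in CPM (log axis) of the 10 SR genes in each library, with EV and OE above and shScr, KD4 and KD6 below; points are libraries and short lines are means of 3. The libraries of OE and EV overlap for all 10 genes, and Srsf9 is the gene whose KD6 libraries all lie above shScr.

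Overexpression of Smarcd1 left no SR gene past the threshold. Of the 10 genes, 0 were called in OE against EV by limma at an adjusted p under 0.05, 0 had an unadjusted p under 0.05, and 1 was higher and 9 were lower by any amount. Over all genes, 0.00741% were called, 12.95% had an unadjusted p under 0.05 and 53.8% were higher by any amount. The log2 differences of the SR genes ran from -0.18 to 0.024 with a median of -0.048, beside a median of 0.011 over all genes. The 95% intervals of the 10 differences lay between -0.42 and 0.14, so log2 differences below -0.42 or above 0.14 lay outside every interval.

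Among the members with 2 RNA recognition motifs, Srsf5 showed the lowest value. It was at 321, 256 and 283 CPM in EV and at 237, 231 and 289 CPM in OE, a log2 difference of -0.18 (SE 0.10, adjusted p = 0.502). The third OE library lay above 2 of the 3 EV libraries, so the groups overlapped. Srsf1 was at 403, 383 and 393 CPM in EV and at 407, 371 and 381 CPM in OE. Srsf6, which like Srsf5 favors exon inclusion, was at 187 ± 8.58 CPM in EV and 190 ± 7.46 in OE, the single member with a positive difference. Srsf4 and Srsf9 differed by -0.028 and -0.037.

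Among the members with 1 RNA recognition motif, Srsf10 was at 157, 126 and 136 CPM in EV and at 132, 126 and 127 CPM in OE, a log2 difference of -0.11 (SE 0.076, adjusted p = 0.559). Its highest value was EV replicate 1, the library that stood apart. Srsf3 was at 214, 184 and 203 CPM in EV and at 192, 187 and 192 CPM in OE. Srsf2, Srsf7 and Srsf11 differed by -0.024, -0.090 and -0.058. Without EV replicate 1 all 10 members were lower in OE, 0 were called, and the smallest adjusted p was 0.751. The median log2 difference was then -0.027 over the members and 0.0045 over all genes. Levels of the members varied together from library to library, so their directions do not count as separate observations.

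No SR gene passed the threshold in KD4, where Smarcd1 mRNA was lower, or in KD6, where it was not shown to be. In KD4 against shScr, 0 of 10 were called and 0 had an unadjusted p under 0.05, beside 9.58% of all genes called and 24.7% under an unadjusted p of 0.05. The differences ran from -0.13 to 0.11 on the log2 scale, and their 95% intervals from -0.36 to 0.26. In KD6 against shScr, 0 of 10 were called and 0 were under an unadjusted p of 0.05, beside 2.91% and 15.3% of all genes, with intervals between -0.32 and 0.30. With both hairpin lines as 1 group of 6, in which Smarcd1 also missed the threshold (log2 difference -0.39, adjusted p = 0.268 by limma), 0 of 10 were called and 0 were under an unadjusted p of 0.05, beside 2.66% and 17.3% of all genes. KD6 and KD4 compared directly gave 0 calls among the 10 and 0 under an unadjusted p of 0.05, beside 4.91% and 17.4%. These comparisons share the shScr or hairpin libraries and are not independent of each other.

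Srsf9, which binds exonic enhancers and silencers, came closest in KD6. It was at 44.3, 47.2 and 45.5 CPM in shScr, at 46.2, 49.4 and 51.4 CPM in KD4 and at 53.2, 51.2 and 48.1 CPM in KD6. All KD6 libraries lay above all shScr libraries, whereas KD4 overlapped with shScr. The log2 difference was 0.15 in KD6 (SE 0.069, adjusted p = 0.337) and 0.099 in KD4 (SE 0.069, adjusted p = 0.419). It was the single member whose KD6 and shScr groups did not overlap upward, while 12% of all genes did so.

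Srsf4 was at 51.4, 56.6 and 52.6 CPM in shScr and at 55.8, 59.2 and 58.7 CPM in KD4, with the smallest adjusted p of that comparison (log2 difference 0.11, SE 0.064, adjusted p = 0.320). The highest shScr library lay above the lowest KD4 library. Srsf5 was at 293, 325 and 250 CPM in shScr, 239, 275 and 277 CPM in KD4 and 271, 275 and 255 CPM in KD6, the lowest log2 difference in both lines (-0.13 and -0.11). Its shScr libraries alone spanned the values of both hairpin lines apart from KD4 replicate 1. Srsf11 was at 217, 203 and 166 CPM in shScr, 159, 189 and 187 CPM in KD4 and 186, 184 and 214 CPM in KD6, again with overlap.

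**Figure D2:**
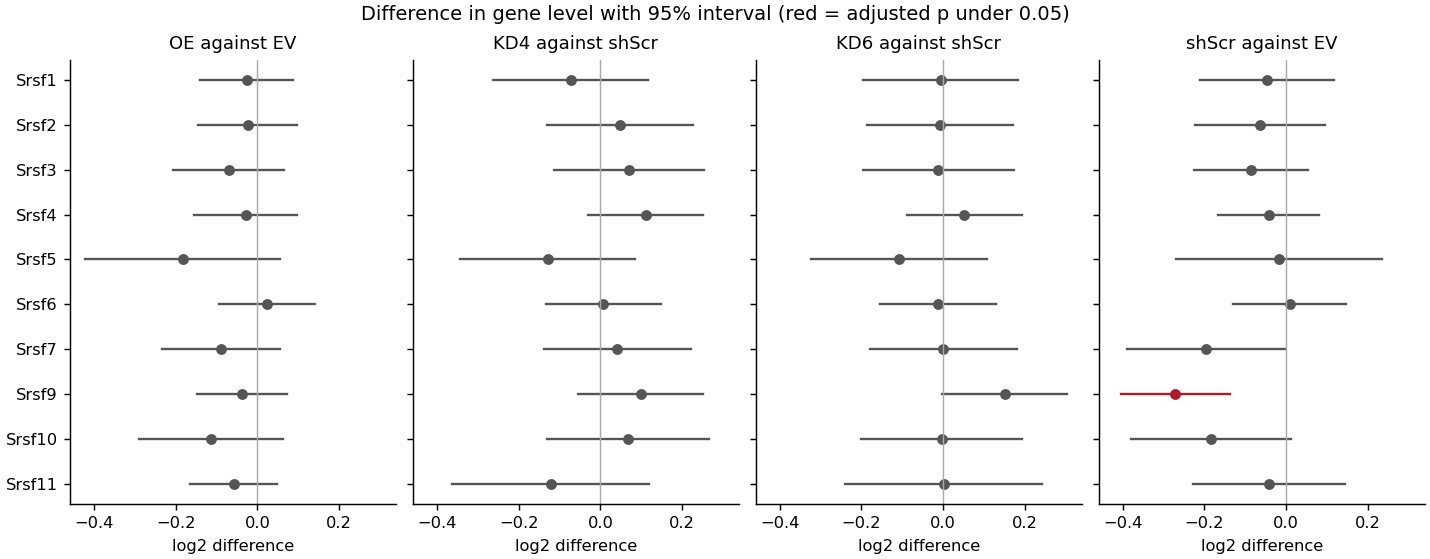
Log2 difference in the level of each SR gene (horizontal axis) with its 95% interval for OE, KD4 and KD6 against their controls and for shScr against EV; red marks an adjusted p under 0.05. Srsf9 in shScr against EV, at -0.27, is the marked gene.

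The 2 control lines were also set against each other, on transcript CPM summed per gene, the scale that holds all 15 libraries. Srsf9 was called lower in shScr than in EV. It was at 53.2, 51.3 and 53.4 CPM in EV and at 41.9, 44.97 and 43.5 CPM in shScr, with no overlap (log2 difference -0.27, SE 0.062, adjusted p = 0.0118 by limma). On the same scale Srsf9 was at 52.8, 49.5 and 49.99 CPM in OE, at 43.5, 47.5 and 49.5 CPM in KD4 and at 51.8, 48.9 and 46.1 CPM in KD6. Of the 10 genes, 1 was called, 0 higher and 1 lower, beside 15.8% of all genes called, and 1 was without overlap downward beside 21.1%. Without shScr replicate 1 Srsf9 missed the threshold, with an adjusted p of 0.0502. Srsf7 had a log2 difference of -0.20 (unadjusted p = 0.0465, adjusted p = 0.144) and Srsf10 of -0.18 (adjusted p = 0.174). Smarcd1 itself was lower in shScr than in EV (log2 difference -0.90, adjusted p = 7.48e-05 by limma). EV and shScr differ in vector, in selection drug and in Smarcd1 level, and these cannot be told apart.

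The transcripts of the family were distributed very unevenly among members. Srsf9 was listed with 1 transcript, Srsf2 with 2, Srsf4 and Srsf6 with 3, Srsf1 and Srsf3 with 5, Srsf10 with 6, Srsf5 and Srsf7 with 8, and Srsf11 with 10. M1 held 40 of the 51, of which 19 were classed as protein coding, 12 as retained intron, 7 as processed transcript and 2 as nonsense-mediated decay, and 11 were not in M1. Every listed transcript averaged at least 1.00 CPM (geometric mean over the libraries), so weaker transcripts of these genes were not analyzed here. The listed transcripts of Srsf5 summed to 74.3% to 79.4% of its gene level in the hairpin lines and 76.1% to 78.9% in EV and OE. Those of Srsf11 summed to 86.0% to 92.3% and 87.1% to 92.4%, and those of Srsf3 to 90.2% to 96.9% and 87.1% to 92.3%. Shares and levels per length leave out the remainder. Shares are percentages of the summed CPM of a gene and count long transcripts more than short ones.

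Srsf3 was the member with most reads outside its coding transcript. Srsf3-002, the transcript with the early stop shown above, held 36.7% of Srsf3 CPM on average (30.5% to 39.0% over 15 libraries), the retained-intron transcript Srsf3-003 held 32.9%, and the coding Srsf3-001 held 20.3% (15.9% to 28.7%). Per length, over the 4 Srsf3 transcripts in M1, the shares were 50.2% for Srsf3-002, 21.7% for Srsf3-003 and 20.8% for Srsf3-001. Transcripts that M1 classes as non-coding or as decay targets made up 64.7% to 76.1% of Srsf3 in the 15 libraries. The same class made up 36.2% to 45.4% of Srsf5, 14.2% to 22.1% of Srsf10, 16.0% to 20.4% of Srsf11, 10.0% to 13.6% of Srsf2, 8.28% to 17.8% of Srsf6, 0.910% to 10.2% of Srsf1 and 1.498% to 4.75% of Srsf4. The range of Srsf3 lay above that of each other gene; Srsf7 had 7 of its 8 transcripts outside M1 and could not be classed.

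Srsf1 was led by Srsf1-003 with 60.7% and Srsf1-001 with 34.8%. Its decay target Srsf1-002 averaged 2.698% and varied from 0.349% to 6.74%. Srsf1-002 was at 1.40, 8.29 and 5.99 CPM in EV, 7.45, 3.87 and 5.95 CPM in OE, 26.7, 10.7 and 9.26 CPM in shScr, 18.2, 9.99 and 6.09 CPM in KD4 and 7.19, 10.7 and 18.2 CPM in KD6. The 3 shScr libraries lay above the 3 EV libraries, as they did for 12 of the 51 SR transcripts, with 6 the other way, beside 20.8% and 14.4% of all transcripts. Within each hairpin line the values varied by more than the line means did.

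Srsf6-002, which M1 classes as a processed transcript without a coding sequence, was at 8.28% to 12.2% of Srsf6 in the EV and OE libraries and at 13.2% to 17.8% in the libraries of the 3 hairpin lines. The coding Srsf6-001 was at 69.4% to 74.8% in the former and 59.8% to 68.5% in the latter. Neither range overlapped between these sets of lines. Among the 50 SR transcripts, Srsf6-002 was the 1 that separated upward and Srsf6-001 the 1 that separated downward, beside 0.633% and 0.439% of all transcripts of genes with at least 2. Both were chosen after their values were seen, and no test was run across these lines. Mean Smarcd1 was also lower in shScr, KD4 and KD6 (15.3, 9.13 and 14.4 CPM) than in EV and OE (29.6 and 65.7 CPM). Within a vector and drug, the mean share of Srsf6-002 was 10.3% in EV and 11.1% in OE. It was 15.1% in shScr, 15.1% in KD4 and 14.6% in KD6. Srsf6-001 and Srsf6-002 are shares of the same gene and not separate observations. Vector and drug cannot be told apart, and the part of Smarcd1 level was not tested.

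In the other genes 1 coding transcript usually led. Srsf2-001 held 88.7%, Srsf4-001 83.8%, Srsf6-001 67.7% and Srsf11-002 50.9%. In Srsf10 the transcripts Srsf10-001, Srsf10-002 and Srsf10-003 held 31.4%, 28.0% and 21.5%. In Srsf5 the pair that differs by 3 bases, Srsf5-202 and Srsf5-003, held 35.6% and 22.8%. Srsf7 was spread over Srsf7-202 with 27.8%, ENSMUST00000235069 with 27.8% and ENSMUST00000235036 with 24.7%.

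**Figure D3:**
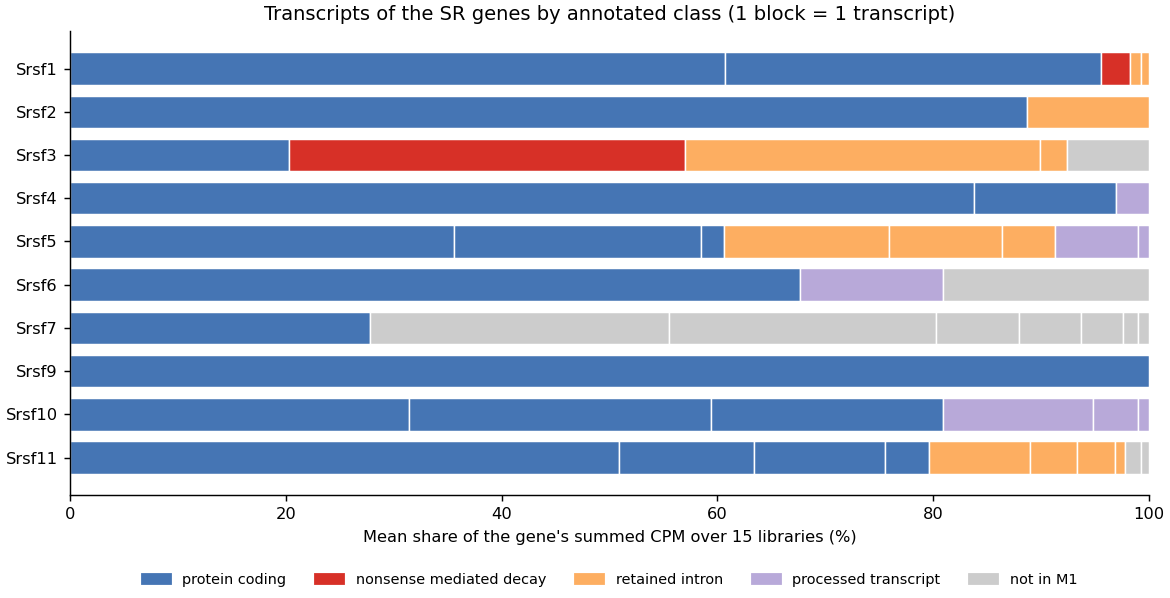
Mean share of the summed CPM of each SR gene (horizontal axis, %) over 15 libraries; each block is 1 transcript, colored by its class in GENCODE M1. Srsf3 has the shortest protein-coding portion among genes whose transcripts are mostly in M1, 20.3%.

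No SR transcript passed the threshold by its level. In OE against EV, 0 of 51 were called and 3 had an unadjusted p under 0.05, beside 0% and 9.65% of all transcripts. In KD4 against shScr, 0 were called and 5 were under an unadjusted p of 0.05, beside 1.14% and 14.9%. In KD6 against shScr, the numbers were 0 and 3, beside 0.142% and 10.2%, and in KD6 against KD4 they were 0 and 4, beside 0.46% and 10.2%. Groups did not overlap upward for 4 transcripts and downward for 3 in OE against EV, beside 10.8% and 6.71% of all transcripts. In KD4 against shScr they did so for 0 and 5, beside 10.2% and 11%. The counts were 3 and 5 in KD6 against shScr, beside 7.79% and 9.18%, and 3 and 4 in KD6 against KD4, beside 7.54% and 7.53%.

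The Srsf3 decay target did not pass in any comparison. Srsf3-002 was at 56.9, 63.0 and 69.3 CPM in EV, 69.1, 60.4 and 66.2 CPM in OE, 65.4, 60.3 and 50.8 CPM in shScr, 62.9, 68.9 and 69.5 CPM in KD4 and 61.5, 62.9 and 61.5 CPM in KD6. KD4 was the line with the highest mean, and 1 shScr library lay among its values. The log2 difference was 0.050 in OE (95% interval -0.16 to 0.26), 0.19 in KD4 (-0.024 to 0.41) and 0.081 in KD6 (-0.14 to 0.30), with adjusted p values of 0.853, 0.389 and 0.841. The coding Srsf3-001 differed by -0.17 in OE, -0.066 in KD4 and -0.0091 in KD6, with adjusted p values of 0.735, 0.880 and 0.992.

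Share within the gene was tested with diffSplice, in which each transcript is compared with the other transcripts of its gene, on 50 SR transcripts. In OE against EV, 1 was called, beside 0.447% of all transcripts of genes with at least 2, and 4 were under an unadjusted p of 0.05, beside 10.2%. The called one was Srsf11-001, the form with the additional bases near the start of its coding sequence. Srsf11-001 was at 8.43, 9.79 and 14.9 CPM in EV and at 5.45, 2.34 and 10.5 CPM in OE, or 4.72%, 5.72% and 8.25% of Srsf11 in EV and 3.10%, 1.47% and 5.95% in OE. The third OE library lay above 2 EV libraries. The difference relative to the other Srsf11 transcripts was -1.02 on the log2 scale (SE 0.23, adjusted p = 0.0287).

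The call depended on the setting. diffSplice takes 1 spread for all transcripts of a gene. A fit with the own spread of each transcript was an alternative chosen after the data were seen. In that fit the adjusted p for Srsf11-001 was 0.598 (SE 0.41) and 0 of the 50 were called. It called 0 of all 24155 transcripts in OE against EV, so its 0 could hardly have come out otherwise. The call by diffSplice also fell away with a minimum mean of 5 CPM and, in turn, without EV replicate 2, EV replicate 3, OE replicate 1 or OE replicate 2, each of which left 0 calls. By its level alone Srsf11-001 had an adjusted p of 0.536. In shScr it was at 5.58, 5.54 and 0.800 CPM, in KD4 at 5.45, 5.20 and 6.43 CPM and in KD6 at 4.80, 10.2 and 8.34 CPM. Its lowest value was shScr replicate 3, and its share in KD6 against shScr missed the threshold (log2 difference 1.00, SE 0.25, adjusted p = 0.0711). With its own spread the adjusted p was 0.658, in a fit that called 2 of all 24155 transcripts.

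In KD4 against shScr, KD6 against shScr and KD6 against KD4, 0 of 50 were called by share, beside 0.344%, 0.215% and 0.112%, and 5, 6 and 3 were under an unadjusted p of 0.05, beside 9.03%, 7.51% and 6.59%. The smallest p of the last comparison belonged to ENSMUST00000234095 of Srsf7. It was at 1.66, 1.70 and 1.93 CPM in shScr, 1.87, 1.60 and 3.10 CPM in KD4 and 1.02, 0.867 and 0.371 CPM in KD6. All KD6 libraries lay below all shScr and KD4 libraries. EV was at 0.844, 0.988 and 1.66 CPM and OE at 1.36, 1.57 and 0.992 CPM, both overlapping with KD6. Its share difference in KD6 against KD4 was -0.87 (SE 0.22, adjusted p = 0.0942). The adjusted p with its own spread was 0.559, from a fit that called 0 among all transcripts. By level ENSMUST00000234095 differed by -0.85 (adjusted p = 0.135), and it passed in a fit of all 5 lines. The values lie near the minimum of the table, at 0.388% to 2.83% of Srsf7.

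With the transcripts of a gene combined into 1 p per gene by the Simes method, 0 of the 9 SR genes with more than 1 transcript were called in any of these comparisons. In OE against EV, Srsf11 had an adjusted p of 0.0518 and 2 of the 9 had an unadjusted p under 0.05, beside 1.09% of all such genes called and 15.3% under an unadjusted p of 0.05. In KD4 against shScr, Srsf4 came first (adjusted p = 0.159), beside 1.03% called. In KD6 against shScr, Srsf11 did (adjusted p = 0.135), beside 0.692%, and in KD6 against KD4, Srsf7 did (adjusted p = 0.133), beside 0.212%. In these comparisons 2, 4 and 3 of the 9 had an unadjusted p under 0.05, beside 13.1%, 11.05% and 9.28% of all such genes.

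The retained-intron transcript Srsf1-004 was also low in KD6, at 1.70, 1.31 and 2.00 CPM against 10.3, 3.08 and 3.78 CPM in shScr and 5.15, 2.89 and 3.59 CPM in KD4. The KD6 libraries lay below all others of the hairpin lines, with a log2 difference of -1.18 from shScr by level (SE 0.35, adjusted p = 0.273). EV replicate 1, at 0.752 CPM, was lower still.

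**Figure D4:**
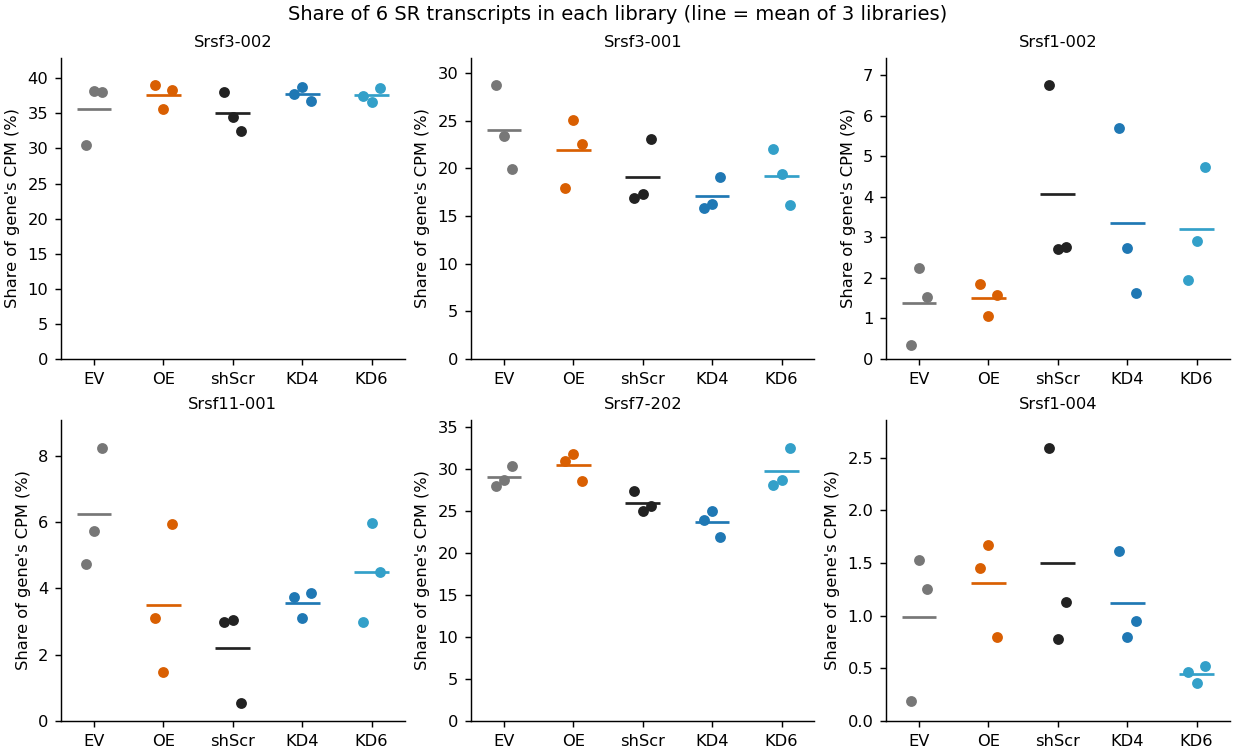
Share (vertical axis, % of the summed CPM of the gene) of Srsf3-002, Srsf3-001, Srsf1-002, Srsf11-001, Srsf7-202 and Srsf1-004 in each of the 15 libraries; lines are means of 3. Srsf11-001 overlaps between OE and EV, and Srsf1-004 is lowest among the hairpin lines in KD6.

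For the 9 genes with more than 1 transcript, the largest shift in mean share ran from 0.125 to 3.16 percentage points in OE against EV, from 1.06 to 4.37 in KD4 against shScr, from 0.930 to 3.78 in KD6 against shScr and from 0.918 to 6.12 in KD6 against KD4. In OE the largest shifts per gene were those of Srsf1-003, Srsf2-001, Srsf3-001, Srsf4-001, Srsf5-202, Srsf6-001, ENSMUST00000235036, Srsf10-003 and Srsf11-005. Srsf11-005 was the 1 of 9 without overlap, beside 21.8% of all genes with at least 2 transcripts when the transcript of largest shift was taken in the same way, at 13.2% ± 0.670 in OE and 10.1% ± 1.85 in EV (SD, n = 3).

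In KD4 against shScr the groups did not overlap for 3 of 9, beside 20.2% of all such genes. These were Srsf1-003 (63.4% ± 1.94 against 59.0% ± 2.69), Srsf2-001 (89.1% ± 0.882 against 87.1% ± 0.686) and Srsf4-002 (12.01% ± 2.06 against 16.1% ± 1.12). Srsf3-002, Srsf5-202, ENSMUST00000193611 of Srsf6, Srsf7-202, Srsf10-002 and Srsf11-005 led their genes with overlap. In KD6 against shScr, Srsf5-003 (22.8% ± 1.36 against 20.7% ± 0.212) and Srsf7-202 (29.8% ± 2.44 against 26.0% ± 1.29) did not overlap, 2 of 9 beside 18.3% of all such genes. Srsf1-001, Srsf2-001, Srsf3-002, Srsf4-002, Srsf6-001, Srsf10-001 and Srsf11-005 did.

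The hairpin lines differed most from each other in Srsf7-202, at 28.1%, 28.7% and 32.6% in KD6 and 24.0%, 25.1% and 22.0% in KD4, a difference of 6.12 percentage points without overlap. Srsf1-001 was at 36.4% ± 1.06 in KD6 and 31.4% ± 0.961 in KD4, and Srsf10-003 at 23.5% ± 2.15 and 19.8% ± 1.87, both without overlap, which made 3 of 9 beside 15.5% of all such genes. Srsf2-001, Srsf3-005, Srsf4-002, Srsf5-202, Srsf6-001 and Srsf11-001 led the other genes with overlap. None of these shifts passed diffSplice.

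Levels of the SR genes varied together from library to library. Of the 45 pairs of SR genes, 44 had a positive Pearson correlation over the 15 libraries, with a median of 0.467, and after the mean of each line was removed 45 were positive with a median of 0.577. The points share libraries and their scaling, so these values are descriptions. Pairs of other genes were not counted in the same way, so the values do not show a trait particular to the family. The mean standardized level of the 10 genes (each gene scaled to SD units over the libraries) was highest in EV replicate 1 at 0.993, and EV replicate 3 and KD4 replicate 3 were at 0.839 and 0.761. It was lowest in shScr replicate 3 at -1.36 and KD4 replicate 1 at -1.19, and both shScr and KD4 had libraries above 0, at most 0.637 and 0.761. The 5 other genes most alike in pattern were Fpgt (r = 0.960), 4933433P14Rik (0.930), Fbxl5 (0.918), Metap2 (0.904) and Ccar1 (0.898), over 15 libraries.

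**Figure D5:**
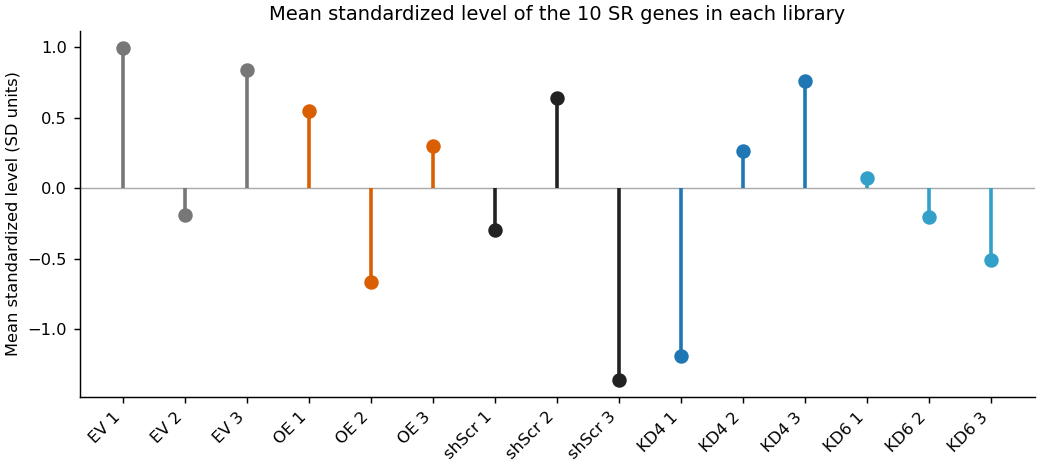
Mean standardized level of the 10 SR genes (vertical axis, SD units) in each of the 15 libraries, colored by line. Libraries of the same line fall on both sides of 0, from -1.36 in shScr replicate 3 to 0.993 in EV replicate 1.

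Few genes that work with the SR proteins were called. Of 31 SR-related proteins, which share the serine-arginine tail or its partners, 30 were measured and 0 were called in OE, with 8 higher and 2 lower at an unadjusted p under 0.05, beside 12.95% of all genes in either direction, and a median log2 difference of 0.0099. Scaf4, Srrm1 and Cherp had the smallest p there, with log2 differences of 0.26, 0.28 and 0.28 and adjusted p values of 0.198, 0.204 and 0.250. In KD4, 1 of 30 was called, beside 9.58% of all genes. It was Scaf11, a spliceosome-associated protein, which rose from 276 ± 9.22 CPM in shScr to 339 ± 13.3 CPM (log2 difference 0.29, SE 0.065, adjusted p = 0.0184), with a median over the list of -0.086. Srrm2 and Clasrp, next in that order, differed by -0.39 and -0.21 with adjusted p values of 0.147 and 0.165. In KD6 and in the pooled KD group 0 were called, with the smallest p in Luc7l, Scaf11 and Son, and in Scaf11, Nktr and Son. In KD6 against KD4 it was also 0, led by Scaf11, U2af1 and Srrm2.

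Of the 14 SR kinases, phosphatase subunits and importers, 0 were called in any comparison, with 1 at an unadjusted p under 0.05 in OE, 2 in KD4 and 1 in KD6, beside 12.95%, 24.7% and 15.3% of all genes. The gene with the smallest p was Ppp1ca in OE, ahead of Clk1 and Tnpo1. Srpk1, the cytoplasmic kinase of the SR tail, led in KD4 and KD6, at 134 ± 0.845 and 132 ± 0.956 CPM against 150 ± 4.94 in shScr (adjusted p = 0.0953 and 0.110), and in the pooled KD group (adjusted p = 0.0939). Tnpo3, which imports SR proteins into the nucleus, and Clk4 followed in KD4, Tnpo1 and Srpk2 in KD6, and Srpk2 and Tnpo1 in the pooled group. Tnpo3, Ppp1ca and Dyrk1a led KD6 against KD4.

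Of 16 nonsense-mediated decay factors, 14 were measured. In OE 0 were called, with 2 higher and 2 lower at an unadjusted p under 0.05, beside 12.95% of all genes, led by Upf3b, Magoh and Upf1. In KD4, 1 of 14 was called, beside 9.58% of all genes. Smg1, the kinase that phosphorylates Upf1, fell from 340 ± 9.16 to 282 ± 13.4 CPM (log2 difference -0.27, SE 0.072, adjusted p = 0.0423), with Dhx34 and Smg6 next. In KD6 0 were called, led by Nbas, Magoh and Smg1, and the pooled KD group also had 0, led by Smg1, Nbas and Dhx34. In KD6 against KD4, 0 were called, led by Smg6, Magoh and Nbas.

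The control lines differed in 5 of the listed genes. In shScr against EV, Clasrp, Nktr and Sfswap of the SR-related proteins were higher (log2 differences 0.34, 0.24 and 0.23, adjusted p = 0.0170, 0.0190 and 0.0306). Among the decay factors Casc3 was higher and Eif4a3 lower (0.25 and -0.28, adjusted p = 0.0289 and 0.00590), both parts of the complex that marks exon junctions, and Magoh, their partner, missed the threshold at -0.43 (adjusted p = 0.0600). Ppp1ca, Ppp1cc and Ppp1cb led the kinase and phosphatase list with 0 calls. The list counts stand beside the 15.8% of all genes called in that comparison.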

How the data were processed

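RNA of 15 libraries of 6DT1 cells (5 lines, 3 libraries each) was measured. The deposited values were fractional CPM computed by the authors; STAR 2.7.8a and mm39 are named in the labels, whereas the methods name Tophat and mm9, so no coordinate was used. The geometric mean of each listed row over its libraries was 1.00 CPM or more. The transcript table held 15 further columns of per-library values whose names matched no label, and these were not used. Depth is not given in the sources used here.

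The test was limma 3.58.1 (R 4.3.3) with an intensity trend, on log2 of CPM plus 1. Calls were made at a Benjamini-Hochberg adjusted p under 0.05, over every row of a table. Intervals are 95% intervals from the moderated degrees of freedom. OE and EV, and the 3 hairpin lines, were fitted separately, and the controls were compared in a fit of 5 lines. Share was tested with diffSplice, with a Simes p per gene beside it. On simulated data diffSplice made more false calls than its threshold allows; a fit with the own spread of each transcript, which made fewer, was therefore added after the data were seen. Names, classes, lengths and coding sequences came from GENCODE M1 by transcript identifier, and symbols from a name table. The SR genes were given by the choice of topic; for each gene the transcript of largest share, those called and those of the largest shift in share were named, with the called members or otherwise the 3 with the smallest p of each other list and the 5 genes most alike in pattern. Further transcripts, among them Srsf1-002, Srsf1-004, Srsf6-002 and ENSMUST00000234095, were named after their values were seen. Members and lists were chosen with earlier results of these data known. Alternatives were a pseudocount of 0.1, quantile and median-of-ratios scaling, a minimum mean of 5 CPM, no trend, a fit of all 5 lines, the mean of KD4 and KD6 in place of 1 group, a replicate block and leaving out each library. Figures were drawn with matplotlib.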

Additional observations from a re-analysis of the deposited data

How the results depend on the processing

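Of 193 recomputed counts of called SR genes or transcripts, 178 gave the reported count and 15 another. Part of this agreement could hardly have come out otherwise. In OE against EV the alternatives called 0 transcripts by level and at most 3 genes (quantile normalization) among all those listed. With the replicate number as a replicate block, 0 of 14 counts changed, while the genes called among all genes went from 364 to 114 in KD, from 1310 to 626 in KD4, from 398 to 179 in KD6, from 671 to 349 in KD6 against KD4 and from 2078 to 990 in shScr against EV. Leaving out 1 library also moved such counts, at the lowest to 92 in KD and 641 in KD4 (without shScr replicate 2), to 151 in KD6 and 298 in KD6 against KD4 (without KD6 replicate 2) and to 971 in shScr against EV (without EV replicate 1), and transcripts called in KD6 went from 43 to 0 (without shScr replicate 2). The replicate numbers were not used to pair libraries, since same-numbered libraries correlated between -0.149 and 0.258 (OE and EV) and between -0.328 and 0.0614 (hairpin lines) in their deviations from line means. Leaving out each library gave 0 or 1 calls for Srsf9 in shScr against EV (log2 difference -0.25 without shScr replicate 1) and 0 to 1 for share in OE against EV, KD4 against shScr and KD6 against shScr; the other counts stayed at 0. ENSMUST00000234095 was called by level in KD6 against KD4 in a fit of all 5 lines (1 call) and by share with a pseudocount of 0.1 in KD6 against shScr (1) and against KD4 (1). For share in OE against EV, the minimum of 5 CPM gave 0. The own spread of each transcript also gave 0, with 0 called among all transcripts. The cause was not tested. Without KD4 replicate 1, ENSMUST00000234696 of Srsf7 was called by share in KD4 against shScr and ENSMUST00000234095 in KD6 against shScr; Srsf11-001 was called in KD6 against shScr without shScr replicate 1, shScr replicate 2 or KD6 replicate 1. Where a library was left out, the remaining pair of a line was taken to vary like the other lines. Depth is unknown and limits transcripts near 1.00 CPM.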
